A study of Macaca fascicularis with 1154 samples.

Results

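The transcripts described here were high in the cells that held them and were held by few cells. They are 150 of 28592 Ensembl-type gene IDs of the cynomolgus monkey, selected on measured values in single cells of cultured embryos. An ID was a member if it reached 10 counts in every 1000000 counts of the cell (CPM) or more in 5 to 30% of 593 cells and in at least 5 collections, and if it ranked within the first 150 by its mean CPM over the cells at or above 10 CPM, called positive cells below. Of 6049 IDs within the limits on cells and collections, 6 were on a list of IDs that the rule leaves out, which left 6043, and 4 of these 6 would otherwise have ranked among the members.

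Each sample was 1 cell of a Macaca fascicularis embryo grown in culture, and the labels give neither a treatment nor a genotype. The collections, meaning the cells that share an embryonic day (E) and a B number in their titles, were E09 B1 and B2, E11 B2, E13 B1 and B2, E15 B1, B2 and B3, E17 B1, B4 and B5, E19 B1 and B2, and E20 B1 and B2; cells titled E11 B1 or E17 B3 have no column here and were not analysed. Titles in E13 B1 add pe and titles in E17 B1 add p, and the labels leave these letters unexplained. Cells were freed with trypsin, picked by mouth pipette and sequenced as SMART-seq2 libraries on a BGISEQ-500, and 600 of 1154 samples had a column in the deposited table, the other 554 being not analysed here. After 7 cells with under 100000 counts or under 2000 detected IDs were left out, the collections held 8 to 87 cells, and totals per cell ran from 107155 to 18828705 estimated counts. The labels do not say which cells came from 1 embryo, so a p-value here reflects how collections vary, which may be technical. The files do not pair IDs with gene names, and 0 IDs were found in the gene table given with the data, so the members are named by ID, no cell type was assigned, and no marker of a cell type could be read.

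In the primate embryo around implantation, the epiblast, the endoderm beside it, the trophoblast, the amnion and the extraembryonic mesenchyme take on separate programmes within days. Cells of such lineages often put a large part of their messenger RNA into a few transcripts, such as those of secreted proteins, hormones or matrix, which neighbouring cells hardly make. A transcript of this kind is high in a minority of single cells and absent or low in the rest. SMART-seq2 reads whole transcripts without molecular identifiers, and RSEM divides reads that fit several genes between them, so copies of a gene family can share one signal.

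The values that chose the members are given as a description. Members were positive in 5.23 to 29.3% of cells, with a median of 16.7%, and in 5 to 15 collections, with a median of 11. ENSMFAG00000034698 was positive in the fewest cells, 31, and ENSMFAG00000030203 in the most, 174. The mean over positive cells ran from 222.9 to 7049.8 CPM, with a median of 325.4 CPM. The last member, ENSMFAG00000046269, had a mean of 222.9 CPM and the one before it, ENSMFAG00000027151, a mean of 223.3 CPM. The first ID outside, ENSMFAG00000044057, had 222.4 CPM and the second, ENSMFAG00000040134, had 222.1 CPM, so the border lies within a dense run of values.

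The level differed widely among the positive cells of 1 member. The ratio of the mean to the median over positive cells, whose mean the rule ranked by, had a median of 3.26 over the members and reached 106. The 5 highest cells held a median of 35.9% of a member's summed CPM, and over 50% for 44 members. ENSMFAG00000042008, first by rank, had a mean of 7049.8 CPM and a median of 140.4 CPM over 128 positive cells, and its highest cell stood at 159123 CPM. ENSMFAG00000031396, second, had a mean of 5834 CPM and a median of 55.1 CPM over 68 positive cells, 11 of them at 1000 CPM or more. ENSMFAG00000041384, ENSMFAG00000045627, ENSMFAG00000034698, ENSMFAG00000037971, ENSMFAG00000044033 and ENSMFAG00000037925 followed with means of 2641, 2631, 2347, 2133, 1925 and 1428 CPM and medians of 33.4 to 89.4 CPM. The means of these 8 members lay far above their medians, and when IDs were ranked by the median instead, 89 of the 150 members were shared.

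**Figure D1:**
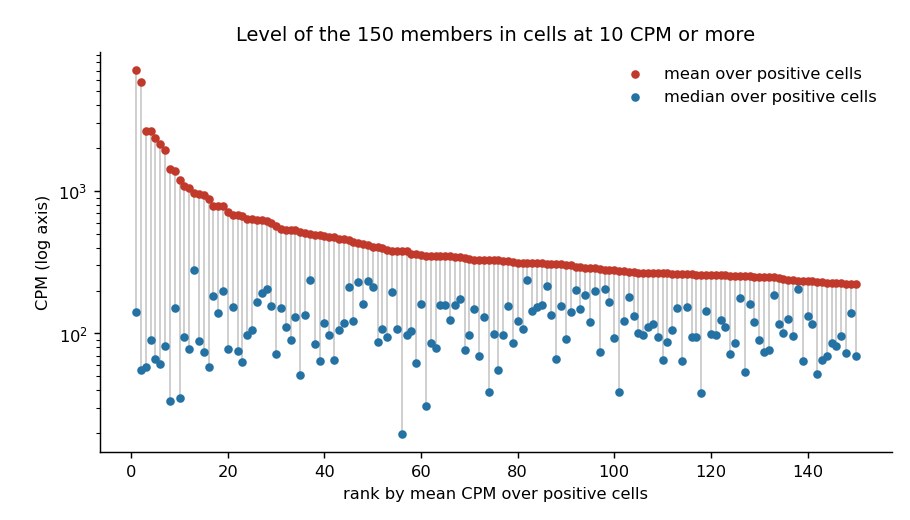
Mean (red) and median (blue) CPM over the positive cells of each of the 150 members, on a log axis, against rank by the mean. The means fall from 7049.8 to 222.9 CPM, while the medians lie between 19.6 and 277.3 CPM at every rank.

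Over all 150 members and 593 cells, 54.0% of values were 0 CPM, 29.2% lay between 0 and 10 CPM and 16.8% were positive. Values of 100 CPM or more made up 8.73% and values of 1000 CPM or more 1.60%. Members below 10 CPM in a cell were therefore often detected there at a low level. A cell had 2 to 58 positive members, with a median of 24. That number correlated with the number of IDs detected in the cell (Pearson's r = 0.503) and weakly with the log10 of its total count (r = 0.188) over 593 cells, which share collections and depth; with each cell thinned to 100000 counts the latter was -0.0275.

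The members together took a median of 0.662% of a cell's counts, with a range from 0.0264 to 31.4%. In 30 cells they took over 5%: 14 from E19 B1, 6 from E20 B2, 4 from E11 B2, 4 from E17 B4, 1 from E17 B1 and 1 from E20 B1. The highest was a cell of E19 B1 with 31.4% of 5368552 counts (exact 95% binomial interval 31.40 to 31.48%, counting error only), of which ENSMFAG00000042008 alone took 15.9% of the cell's counts. The next was a cell of E17 B4 with 29.0% of its counts (28.97 to 29.03%), of which ENSMFAG00000031396 took 17.1%. Of the 30 cells, 28 were in 1 cell group, group 4, described below.

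**Figure D2:**
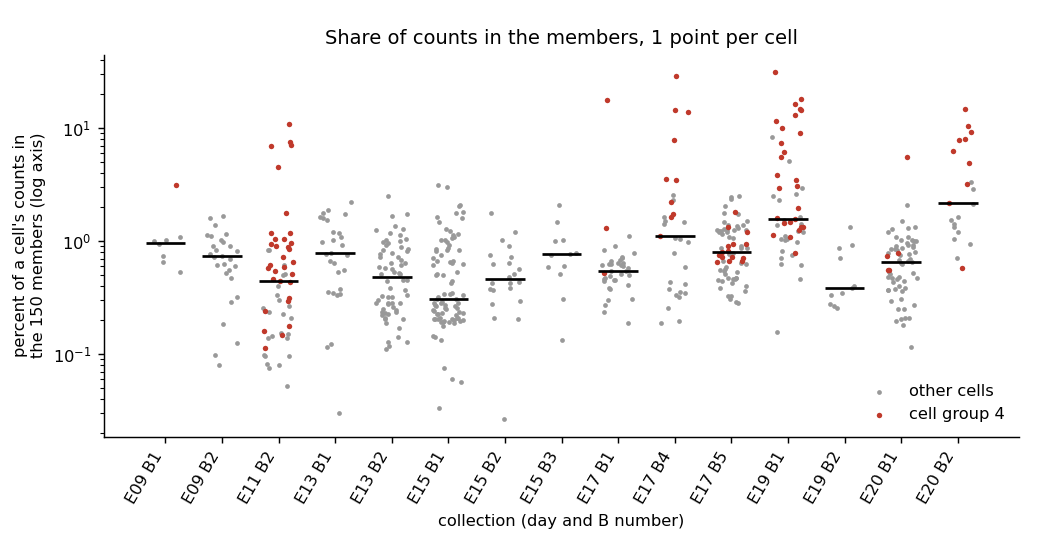
Percent of each cell's counts in the 150 members, on a log axis, by collection, with 1 point per cell and a black line at the median of the collection. Cells of cell group 4, in red, make up 28 of the 30 cells above 5%, and the highest cell, in E19 B1, reaches 31.4%.

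The members were spread unevenly over the collections, given here with no test. The share of the variance of log2(CPM + 1) over cells that lay between collections had a median of 29.1% over the members, from 3.57 to 75.8%, against a median of 9.70% over the 6043 IDs. The highest share belonged to ENSMFAG00000042008. This ID had 0 positive cells among 296 in the 7 collections from E09 B1 to E15 B2, and 2 of 12 in E15 B3. The count of 0 allows a share of up to 1.01% if the 296 cells are taken as independent, which leaves variation between collections out. ENSMFAG00000042008 was positive in all 37 cells of E17 B1, all 51 of E19 B1 and all 21 of E20 B2, with collection means of 2637, 13336 and 4259 CPM. In the other collections from E17 on it was positive in 6 of 31 cells of E17 B4, 5 of 71 of E17 B5, 6 of 63 of E20 B1 and 0 of 11 of E19 B2, the last allowing up to 27.3%. Collections of the same day thus stood at both ends for this ID. What the collections differ in, such as the embryo or the cells picked, cannot be told apart. ENSMFAG00000031396 was positive in 8 collections, in up to 32.3% of the cells of 1 collection, and its collection mean was highest in E17 B4 at 8880 CPM, against 1904 CPM in E20 B2, 725.5 CPM in E11 B2 and 689.0 CPM in E19 B1.

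To see which members were positive in the same cells, the odds ratio of being positive together was computed for each of 11175 pairs within collections and pooled over them. Since the same cells chose the members, this is a description with no test. The log2 odds ratio ran from -5.38 to 5.80 with a median of 0.00, and it was 2 or more for 1236 pairs and -2 or less for 817. The highest pair, ENSMFAG00000002580 and ENSMFAG00000003363, were positive together in 74 cells, of 108 and 75 positive for each, and share divided reads (below). The lowest pair, ENSMFAG00000001921 and ENSMFAG00000033859, were positive together in 0 cells, of 160 and 98.

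Average linkage on these odds ratios, stopped at 8 sets, gave sets A to H with 51, 42, 27, 16, 5, 4, 3 and 2 members. Within sets A, B, C, D and E the median log2 odds ratio was 1.62, 2.18, 1.90, 1.52 and 1.64, and toward members outside the set it was -0.41, -0.65, -0.31, -0.45 and 0.11. Set A held the 7 members of highest rank. The mean over positive cells had a median of 463.0 CPM over the members of set A, against 298.8 CPM in set B, 293.1 CPM in set C, 308.2 CPM in set D and 266.3 CPM in set E. Members of some of the largest sets were positive together less often than independent members would be. The median log2 odds ratio between sets A and B was -0.77, and 73.0% of 2142 pairs were below 0. For sets B and C the median was -0.72, and 74.2% of 1134 pairs were below 0. Sets A and D and sets B and D had medians of -0.57 and -0.73. Sets A and C lay near 0, with a median of -0.13 and 54.2% of 1377 pairs below 0. For sets C and D the median was 0.22, and 43.5% of 432 pairs were below 0. Sets B and E were positive together more often than independent members would be, with a median of 0.93 over 210 pairs. For sets D and E it was less often, with a median of -1.03 over 80 pairs.

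The sets peaked in different collections. Counting every member in every cell, set A was positive in 41.4% of values in E19 B1, 37.1% in E20 B2 and 29.2% in E11 B2, and in 2.14% in E19 B2. Set B was positive in 44.5% of values in E13 B1, 28.2% in E17 B5 and 26.1% in E15 B1, and in 2.10% in E19 B1. E19 B1 was therefore the highest collection for set A and the lowest for set B. Set C was positive in 43.8% of values in E17 B1 and 35.4% in E20 B1, and in 3.37% in E19 B2. Set D was positive in 35.2% of values in E19 B2 and 32.8% in E15 B1, and in 1.56% in E09 B1. Set E was positive in 95.0% of values in E09 B1, 63.6% in E09 B2 and 32.3% in E11 B2, and in 1.82 to 18.6% in every later collection. E09 B1 has 8 cells and E19 B2 11, so the values of these collections rest on few cells.

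Leading members of sets B to E are given here singly, and not all followed the collections of their set. ENSMFAG00000039504 and ENSMFAG00000037928, first and second of set B, had means over positive cells of 952.0 and 790.0 CPM in 50 and 53 cells. ENSMFAG00000037925, first of set C, was positive in 36 of 51 cells of E19 B1 with a collection mean of 1399 CPM and in 11 of 63 cells of E20 B1 with 59.1 CPM, and its highest cell held 60663 CPM where the next held 3905 CPM. ENSMFAG00000038158, first of set D, was positive in 56 of 87 cells of E15 B1 and in 1 of 51 cells of E19 B1. ENSMFAG00000035336, second of set D, had a mean of 620.8 CPM and a median of 206.5 CPM over 106 positive cells. ENSMFAG00000000381, first of set E, was positive in all 8 cells of E09 B1, in 25 of 28 of E09 B2 and in 9 of 57 of E11 B2, with collection means of 1207, 643.2 and 26.6 CPM. ENSMFAG00000003156, second of set E, was positive in 32 cells, with 1376 CPM in the highest.

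To compare the members with a property that the rule did not use, cells were grouped by the 4484 IDs at 10 CPM or more in over 30% of cells, none of which is a member. This gave 7 cell groups of 124, 110, 106, 103, 93, 37 and 20 cells. They are called by number, since no marker could be read. With the Leiden resolution at 0.6 in place of 0.3, groups 2 and 3 held the same cells. Groups 1, 4 and 5 did not: their Jaccard indices (shared cells over all cells in either version) were 0.573, 0.602 and 0.570. Only groups 2 and 3 were tested again at 0.6. Whether the results of groups 1, 4 and 5 hold at that resolution was not tested. Group 2 had the lowest depth, with a median of 644027 counts per cell against 964713 to 4856721 in the others. Group 6 came to 89.2% from E17 B1, so this group and its collection cannot be told apart. Group 7 came to 70.0% from E09 B2.

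Each large set stood out in 1 or 2 of these groups. Members of set A were positive in a median of 43.7% of the cells of group 4, and 41 of its 51 members were most often positive there, against medians of 3.23 to 10.5% in the other groups. Members of set B were positive in a median of 58.1% of the cells of group 5, where 37 of 42 were most often positive, and in 1.46% of those of group 4. Set C had medians of 41.9% in group 1 and 40.5% in group 6, set D 37.7% in group 3 and set E 90.0% in group 7. The 3 members of set G had a median of 55.5% in group 2. Sets A to E and G were then looked at within collections, each in the group where it was most often positive over all cells. Since the same cells chose these pairs, the counts that follow are a description with no test. Within collections with at least 5 cells in a group and 5 outside it, set A was more often positive in group 4 than outside in 6 of 6 collections, set B in group 5 in 6 of 6, set C in group 1 in 8 of 8, set D in group 3 in 5 of 5 and set G in group 2 in 8 of 8. For set E, E09 B2 was the 1 such collection: 87.1% of values were positive in its 14 cells of group 7 and 40.0% in its 14 other cells. In E11 B2, for example, 40.9% of set A values in group 4 were positive against 14.1% in the other cells. In E20 B2 it was 63.3% against 13.2%. ENSMFAG00000042008 was positive in 46.6% of the cells of group 4 and in 97.3% of those of group 6, the group mostly from E17 B1.

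**Figure D3:**
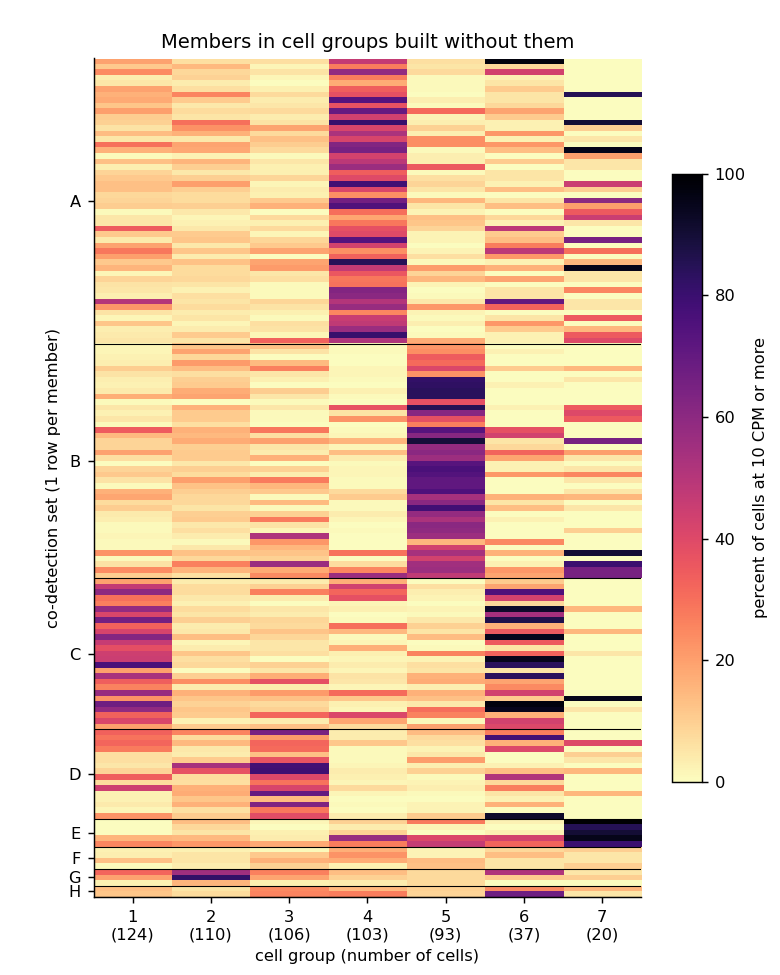
Percent of the cells of each of 7 cell groups at 10 CPM or more (colour, 0 to 100%) for each of the 150 members, 1 row each, ordered by co-detection set and then by rank; the number of cells is under each group. Rows of set A are dark in group 4, where their median is 43.7%, rows of set B in group 5 (58.1%), rows of set C in groups 1 (41.9%) and 6 (40.5%), rows of set D in group 3 (37.7%) and rows of set E in group 7 (90.0%).

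The same difference was tested over collections. Counts were summed per collection for the cells of a group and for all other cells of that collection, with at least 10 cells on each side, and compared with edgeR's quasi-likelihood test with the collection as a block and Benjamini-Hochberg adjustment over the IDs in 5 to 30% of cells. Groups 1 to 5 had 3 to 5 such collections. A filter on low counts kept 120 to 146 of the 150 members per group. CPM given with these tests are of the summed counts over all IDs that passed the filter, scaled by edgeR's TMM factors. They are not on the scale of the CPM of single cells above. A member seen in 1 side only could pass through that side, so the counts below cover tested members and are read only beside the share of all tested IDs called by the same rule.

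In group 4, over E11 B2, E17 B4, E17 B5, E19 B1 and E20 B2, 34 of 140 tested members differed at an adjusted p below 0.05 by edgeR's quasi-likelihood test. Of these, 6 were higher, where 0.677% of 5763 tested IDs were higher, and 28 were lower, where 2.88% were lower. All 6 higher members were of set A, and all 51 set A members had a fold above 1, with a median log2 fold of 5.82. Of the lower members, 15 were of set B, 7 of set C and 6 of set D. The median log2 fold was -0.91 over tested members and -0.08 over tested IDs, and without E17 B5 it was 1.31 and 0.08.

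ENSMFAG00000036141, of set A, had 29.8, 328.2, 353.4, 152.5 and 465.0 CPM in the group 4 cells of these collections in that order, and 0.125, 0.126, 5.04, 1.62 and 0.960 CPM in the other cells. The values of the sides did not overlap, and the log2 fold was 8.04 ± 1.53 (SE, n = 5 collections, edgeR adjusted p = 0.0273). ENSMFAG00000033079, also of set A, had 18.3, 178.5, 40.8, 233.5 and 504.3 CPM in group 4 and 0.0802, 0.0698, 1.76, 2.56 and 1.19 CPM in the other cells. Here too every group 4 value was above every other value, with a log2 fold of 7.72 ± 1.57 (SE, n = 5, edgeR adjusted p = 0.0306).

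Among the lower members, ENSMFAG00000038302, of set B, had 0.00464, 0.0637, 0, 0 and 0.781 CPM in group 4 and 6.18, 71.0, 6.52, 0 and 651.7 CPM in the other cells. It was at 0 on both sides in E19 B1 and lower in group 4 in the remaining 4 collections, with a log2 fold of -9.95 ± 1.55 (SE, n = 5, edgeR adjusted p = 0.0224). ENSMFAG00000037928, of set B, had 0.756, 0, 0, 0 and 1.06 CPM in group 4 and 73.7, 10.8, 0.818, 13.8 and 656.3 CPM in the other cells, lower in 5 of 5 collections (log2 fold -9.59 ± 1.69, SE, edgeR adjusted p = 0.0224). The values of E20 B2 were the highest in the other cells for both IDs.

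The 7 members of highest rank had log2 folds of 3.89 to 7.26 in group 4, and none of them passed the test. ENSMFAG00000042008 had 7970 ± 12065 CPM in group 4 and 894.8 ± 1934 CPM in the other cells (SD, n = 5 collections), a log2 fold of 4.41 ± 3.72 (SE, edgeR adjusted p = 0.722). ENSMFAG00000041384 was higher in group 4 in 5 of 5 collections, with 3669 ± 4057 CPM against 55.9 ± 110.7 CPM (SD) and a log2 fold of 6.73 ± 2.70 (SE, edgeR adjusted p = 0.256). For both IDs the SD between collections was larger than the mean.

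In group 5, over E13 B1, E13 B2, E15 B1 and E17 B5, 47 of 120 tested members differed by edgeR's quasi-likelihood test. Of these, 26 were higher, where 1.5% of 5915 tested IDs were higher, and 21 were lower, where 2.37% were lower. The higher members were 25 of set B and 1 of set E. All 42 set B members had a fold above 1, with a median log2 fold of 5.53, and 38 were higher in each collection. The lower members were 11 of set C, 5 of set D, 4 of set A and 1 of set G. The median log2 fold was -0.11 over tested members and -0.09 over tested IDs. It was 0.40 and -0.07 without E15 B1, and 0.41 and 0.07 without the collection block.

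ENSMFAG00000031977, of set B, had 229.2, 55.9, 228.5 and 480.4 CPM in the group 5 cells of these collections in that order, and 1.34, 0.250, 0.620 and 1.32 CPM in the other cells. The sides did not overlap (log2 fold 8.07 ± 0.84, SE, n = 4, edgeR adjusted p = 0.0148). ENSMFAG00000034108, of set B, had 1.75, 36.5, 50.6 and 31.4 CPM in group 5 and 0, 0.266, 0.151 and 0.111 CPM in the other cells, again without overlap (log2 fold 7.92 ± 0.90, SE, edgeR adjusted p = 0.0148). ENSMFAG00000039093, of set C, had 0, 0.0222, 0.0260 and 0.133 CPM in group 5 and 21.3, 3.37, 5.82 and 14.1 CPM in the other cells. It was lower in 4 of 4 collections, with a log2 fold of -7.92 ± 1.46 (SE, edgeR adjusted p = 0.0355). ENSMFAG00000031860, of set C, was at 0 on both sides in E13 B1 and had 0.222, 0.0780 and 0.532 CPM in group 5 against 37.7, 29.5 and 77.1 CPM in the others, a log2 fold of -7.65 ± 0.99 (SE, edgeR adjusted p = 0.0197).

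The calls in groups 4 and 5 depended on the collections used. With any 1 of the 5 collections left out, 0 members were called in group 4, and the adjusted p of ENSMFAG00000036141 then lay between 0.0548 and 0.0813. In group 5, 16 members were called without E13 B1 (7 higher, background 0.317%, and 9 lower, background 0.75%) and 0 without E13 B2, E15 B1 or E17 B5. No called member changed direction in any alternative in which it was tested. DESeq2 called more on the same sums: 110 of 140 tested members in group 4, where it called 23.6% of IDs, and 91 of 120 in group 5, where it called 21.6%. The comparisons of groups 4 and 5 share cells, since in E17 B5 the other cells of each include the cells of the other.

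In group 2, over E11 B2, E13 B2, E15 B1 and E17 B5, 2 of 142 tested members were higher by edgeR's quasi-likelihood test, where 0.0331% of 6037 tested IDs were higher, which is these 2 members. None was lower, and 0% of tested IDs were lower, though 34 of 142 members were lower by DESeq2 (background 17.6%) and 47 had an unadjusted edgeR p below 0.05 in either direction (background 24.8%). The members lower by DESeq2 were 23.9% of those tested, near the background. Group 2 is the group of low depth, and the median log2 fold over all 13455 IDs tested in it was -0.96 with TMM scaling, -0.33 with RLE size factors and -2.44 with total counts alone. The TMM factors of group 2 were below those of the other cells in each collection, 0.346 against 1.30 in E11 B2. This scaling raises the CPM of group 2 beside those of the other cells. ENSMFAG00000008501 had 1888, 3670.4, 429.7 and 4398 CPM in group 2 and 7.84, 2.22, 5.89 and 11.8 CPM in the other cells (log2 fold 8.30 ± 1.51, SE, n = 4, edgeR adjusted p = 0.0012). ENSMFAG00000009591 had 1593, 1952, 437.0 and 614.7 CPM in group 2 and 12.7, 0.982, 6.87 and 3.20 CPM in the other cells (log2 fold 7.69 ± 1.56, SE, edgeR adjusted p = 0.0071). Both are of set G, had no overlap between the sides, and lost the call without E13 B2 or without E17 B5 (edgeR adjusted p = 0.18 and 0.16) and without the collection block (0.174). They stayed higher with each of the 3 scalings.

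In groups 1 and 3, with 3 collections each, edgeR called 0 of 146 and 0 of 135 tested members, and 0% of all tested IDs. At an unadjusted p below 0.05, 58 members passed in group 1 (background 8.37%) and 44 in group 3 (background 8.04%). DESeq2 called 70 members in group 1, where it called 12.4% of IDs, and 62 in group 3, where it called 10.5%. Of the 27 set C members, 25 were above 0 in group 1 on the log2 scale, with a median of 4.25, and 20 were higher in each of the 3 collections. Of the 16 set D members, 13 were above 0 in group 3, with a median of 1.08. In group 1, ENSMFAG00000037925 of set C had 2695 ± 4556 CPM against 40.3 ± 63.1 CPM outside the group (SD, n = 3). It was higher there in 3 of 3 collections (log2 fold 5.56 ± 2.22, SE, edgeR adjusted p = 0.484). Without E19 B1, 15 members were called in group 1, 2 higher (background 0.911%) and 13 lower (background 0.878%).

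**Figure D4:**
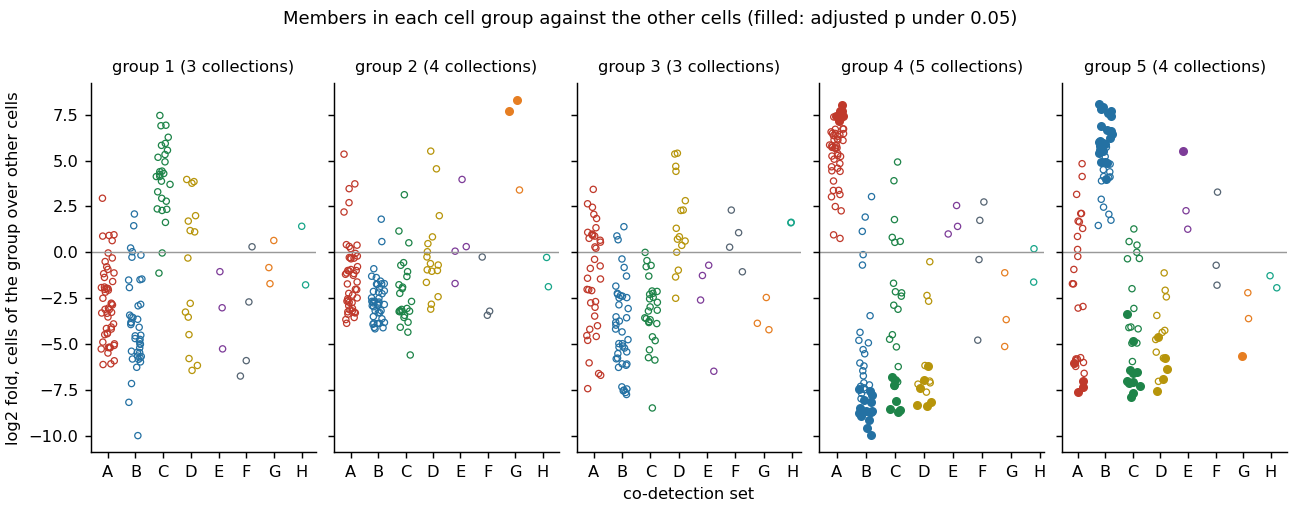
Fitted log2 fold of each tested member, cells of a group over the other cells of the same collections, by co-detection set for cell groups 1 to 5; filled points passed an adjusted p of 0.05 in edgeR. Set A lies above 0 in group 4 (median 5.82) and set B in group 5 (median 5.53), while groups 1 and 3 have no filled point and group 2 has 2.

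The rule used the day only through its count of collections, and the members were also compared between days. Of the 150 members, 98 had a positive cell on day 9, 43 were first positive on day 11, 7 on day 13 and 2 on day 15, these being ENSMFAG00000042008 and ENSMFAG00000003266. ENSMFAG00000003266 was positive in 5 collections, with 23 of its 41 positive cells in E20 B1. Days differed in the number of cells: 98 members had a positive cell among the 36 cells of day 9, 135 among the 57 of day 11, 126 among the 94 of day 13, 142 among the 121 of day 15, all 150 among the 139 of day 17, 127 among the 62 of day 19 and 147 among the 84 of day 20.

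With counts summed over whole collections, 14 of which had at least 10 cells, edgeR's quasi-likelihood test for a trend with day called 0 of 150 members, where it called 0.0125% of 16002 IDs. At an unadjusted p below 0.05, 37 members passed (background 5.64%), 29 of them rising, and DESeq2 called 15 of the 139 members to which it gave an adjusted p (background 1.13%). The slope per day was above 0 for 95 of 150 members, with a median of 0.18 on the log2 scale against 0.00 over all tested IDs. It was above 0 for 39 of 51 members of set A, 13 of 42 of set B, 25 of 27 of set C, 11 of 16 of set D and 0 of 5 of set E. For any difference between days, edgeR called 0 members and 0% of 18799 IDs, with 73 members at an unadjusted p below 0.05 (background 3.73%) and 20 called by DESeq2 of 128 with an adjusted p (background 1.95%). In sums over whole collections, fewer positive cells and less RNA per positive cell cannot be told apart.

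The share of positive cells alone was tested with limma on its log odds per collection, over all 6043 IDs. The test called 4 of 150 members, 3 rising and 1 falling, where 0.0827% of all IDs were called, that is 5 IDs. ENSMFAG00000042008 had 0% positive in the 7 collections up to E15 B2 and 0 to 100% in the later ones. E09 B1, with 8 cells, did not enter the fit. The share of ENSMFAG00000042008 rose by 0.92 ± 0.18 per day in the natural log of the odds (SE, n = 14 collections, limma adjusted p = 0.0149). ENSMFAG00000041064, of set C, had a lowest share of 0% in E09 B2, E15 B3 and E19 B2 and a highest of 94.1% in E19 B1, then 52.4% in E20 B2 and 44.4% in E20 B1. Its collections of days 17 to 20 overlapped the earlier ones only through E19 B2 (slope 0.52 ± 0.12, SE, limma adjusted p = 0.0462). ENSMFAG00000041075, of set A, had 0% in E09 B2 and 1.75% in E11 B2, its lowest shares, and 61.9% in E20 B2, its highest, while E19 B2 with 9.09% lay among the earlier collections. It rose by 0.46 ± 0.10 (SE, limma adjusted p = 0.0462). ENSMFAG00000000381, of set E, had 89.3% in E09 B2, 15.8% in E11 B2 and 0 to 17.2% in the later collections, and its log odds fell by 0.52 per day (SE 0.12, limma adjusted p = 0.0462). These calls depended on the collections used: 0 members were called without E15 B3, without E19 B1 or without E20 B2. Without E19 B2, 8 were called, and the share over all IDs in that fit is not given here. With the 14 collections left out 1 at a time, the call ended 3 times for ENSMFAG00000042008 and 8 times for ENSMFAG00000041064. It ended 7 times for ENSMFAG00000000381 and 9 times for ENSMFAG00000041075. Over these fits the slope ran from 0.76 to 1.13 for ENSMFAG00000042008, from 0.41 to 0.62 for ENSMFAG00000041064 and from 0.42 to 0.51 for ENSMFAG00000041075. For ENSMFAG00000000381 it ran from -0.58 to -0.28. Without E09 B2, the only collection of day 9 in this fit, ENSMFAG00000000381 had a slope of -0.28 (limma adjusted p = 0.9999).

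Some members shared reads with other IDs. RSEM leaves values that are not whole where reads fit several IDs, and 121 of 150 members had only whole values, within 1e-06, which is 80.7% against 87.9% of the 6043 IDs. For 19 members over 10% of the values above 0 were not whole, 12.7% against 7.78% of the 6043 IDs. The members with the largest shares were ENSMFAG00000008501 at 97.9%, ENSMFAG00000003363 at 80.0%, ENSMFAG00000032669 at 75.8% and ENSMFAG00000002580 at 73.6%. For ENSMFAG00000008501, one of the 2 members called in group 2, no set of partner IDs was found whose parts added to whole numbers in most cells.

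For some of the other members partners were found. For others the best sum was whole in a minority of the divided cells, 17.6% at the lowest. ENSMFAG00000041242 and ENSMFAG00000044722, both members of set B, had parts that added to a whole number, within 0.015, in 208 of 208 cells in which they were divided, and their sum was positive in 23.9% of cells. ENSMFAG00000039504 and ENSMFAG00000038302, both members, added to whole numbers in 111 of 111 cells. ENSMFAG00000041384 and ENSMFAG00000036501, both members, did so in 42 of 42 cells. Members ENSMFAG00000002580, ENSMFAG00000032669 and ENSMFAG00000003363 did so together with ENSMFAG00000002784, which is no member, in 182 of 182 cells, and the sum of the 4 IDs had a mean of 1147 CPM over its positive cells. ENSMFAG00000031396, ENSMFAG00000045627 and ENSMFAG00000034698, ranks 2, 4 and 5, were divided among themselves and with ENSMFAG00000046277 and ENSMFAG00000036927. The parts of these 5 IDs added to whole numbers in 56.9% of the 51 cells in which ENSMFAG00000031396 was divided. How reads were shared among such IDs is an estimate of RSEM, so the levels, folds and co-detection of each ID singly are uncertain, those of ENSMFAG00000038302 in group 4 included.

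**Figure D5:**
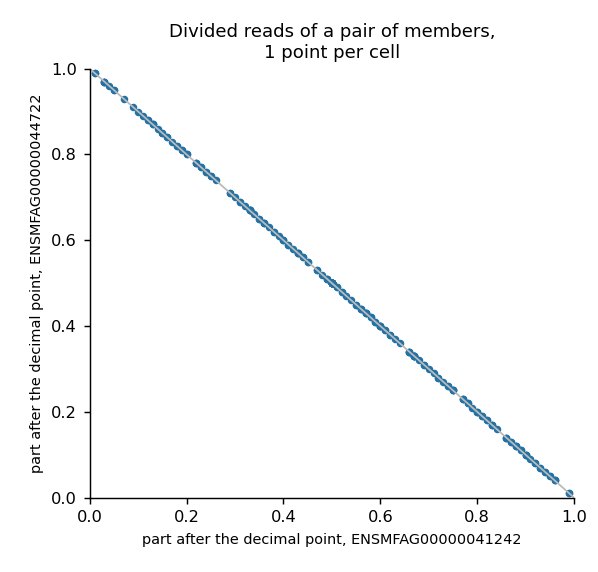
Part after the decimal point of the estimated count of ENSMFAG00000041242 (horizontal axis) and of ENSMFAG00000044722 (vertical axis) in the 208 cells in which both were divided, 1 point per cell; the line marks parts that add to 1. All points lie on the line within 0.015.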

How the data were processed

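The authors deposited 1 table of estimated counts per gene ID and cell, not normalized. The submitters' processing notes list STAR 2.3.4 and RSEM. Genome build and annotation: not given in the sources used. Each of 600 columns matched the title of 1 sample. The members and lists were chosen with earlier results of these data known.

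From the deposited estimated counts, CPM of single cells were computed over all IDs. CPM printed with the edgeR tests are of summed counts over the IDs kept by the filter, with TMM scaling. Counts were rounded to whole numbers after summing for edgeR 4.0.16 (TMM, filterByExpr, quasi-likelihood test, Benjamini-Hochberg, threshold 0.05) and DESeq2 1.42.0. limma 3.58.1 tested the log odds of positive cells, with 0.5 added. Collections with at least 10 cells entered. Cell groups came from scanpy 1.11.5 (log counts per 10000, 2000 variable IDs, 20 components, 15 neighbours, Leiden resolution 0.3, seed 1). Odds ratios are Mantel-Haenszel over collections with 0.5 added. The edgeR tests of the trend with day and of the cell groups were also run on simulated counts. The edgeR test for any difference between days, limma and DESeq2 were not. No doublet caller was run on these hand-picked cells.

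Totals of the summed libraries ran from 14136562 to 361719319 counts. Counts are of reads without molecular identifiers, so intervals and limits for a count of 0 cover counting error only.

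Named are the 8 members of highest rank, the last 2 and the first 2 outside, the 2 highest of each set of 5 or more members, at most 2 called members per direction and test, the 4 with most divided values, and the members in most and fewest cells; partners in divided reads, the top and bottom pairs, and ENSMFAG00000003266 were named after their values were seen. Alternatives were other tools, scalings, filters, CPM limits, depth thinned to 100000 counts, replicate blocks and each collection left out. Leiden resolution 0.6 was a further alternative, with fits for groups 2 and 3 only.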

Additional observations from a re-analysis of the deposited data

Results flagged for a closer look

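For the called members named in the report, 20 sets of values over collections were looked at. Of these, 3, over the 5 collections compared in cell group 4, held 1 collection that stood far from the rest by Dixon's test at the 95% level. Chance alone flags about 1 of 20 sets of normally distributed values, a rate that skewed CPM with zeros need not follow. All 3 were in E20 B2. ENSMFAG00000038302 stood at 0.781 CPM in the group 4 cells of E20 B2, where the next collection had 0.0637 CPM. In the other cells of E20 B2 the same ID stood at 651.7 CPM, where the next had 71.0 CPM. ENSMFAG00000037928 stood at 656.3 CPM in the other cells of E20 B2, where the next had 73.7 CPM. The log2 fold of ENSMFAG00000037928 without E20 B2 was -9.92 (edgeR adjusted p = 0.077, between 0.0548 and 0.08 over the collections left out), and ENSMFAG00000038302 did not pass the filter on low counts without it.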

How the results depend on the processing

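Membership was shared for 121 to 141 of 150 IDs under other CPM limits, thinned depth, a minimum of 4000 IDs or CPM without IDs 1 to 24, for 126 to 149 with a collection left out (74 in every one), and for 89 when ranked by the median. No called member changed direction in any fit that tested it. Each count of members below is followed by the percent of all tested IDs called. DESeq2 called higher and lower 24 (4.53%) and 46 (7.89%) in group 1, 12 (6.01%) and 34 (17.6%) in group 2, 5 (2.63%) and 57 (7.87%) in group 3, 51 (9.08%) and 59 (14.5%) in group 4 and 46 (8.44%) and 45 (13.2%) in group 5. It called 15 members (1.13%) for the trend with day and 20 (1.95%) for any difference, for which limma on mean log2(CPM + 1) called 7, among 141 IDs. With at least 5 cells on each side, which adds collections, 4 (0.925%) were higher and 40 (4.15%) lower in group 1, 4 (0.842%) and 16 (16.9%) in group 2, and 7 (0.353%) lower in group 3 and 34 (3.03%) in group 5. With at least 5 cells per collection 2 members followed the day, among 18 IDs. Without a filter on low counts, 41 members of 81 IDs were called for any difference and 3 (4.61%) lower in group 2. Without the collection block, 0 (0%) were higher in group 2, 10 (1.72%) lower in group 4 and 13 (1.84%) lower in group 5. Chosen after seeing the data, total counts alone gave 65 (36.2%) lower in group 2, where depth was lowest, and other cells without group 2 gave 7 (0.251%) higher and 7 (0.601%) lower in group 5, with 3 collections in place of 4.

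With each collection left out, the counts of members are given with the largest percent of all tested IDs called. In group 1 they ran from 0 to 2 higher (0.911%) and 0 to 13 lower (0.878%). In group 2 they ran from 0 to 2 higher (0.0332%), and in group 4 from 0 to 0 in either direction (0%). In group 5 they ran from 0 to 7 higher (0.317%) and 0 to 9 lower (0.75%). For any difference between days they ran from 0 to 8, and for the share of positive cells from 0 to 8. For these fits between days the percent of all IDs is not given here. The cause was not tested; each such fit has fewer collections.

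The labels do not say that a B number pairs collections of different days. Deviations from the mean of the day correlated between -0.22 and 0.12 for 16 pairs of the same number, and 2 of 9 collections correlated best with their own number. With the B number as a replicate block, 0 members followed the day, where 1 of 18799 tested IDs did. For any difference between days 3 members were called, among 4 of 18799 IDs. In share of positive cells 2 members changed, and the share over all IDs in that fit is not given here. One of the 2 was ENSMFAG00000042008 (limma adjusted p = 0.0107), while ENSMFAG00000041064, ENSMFAG00000041075 and ENSMFAG00000000381 had adjusted p of 0.256, 0.195 and 0.0855.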
